A study of Mus musculus with 2 samples.

Results

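The interferon response genes are a fixed list of 35 genes: the chains of the interferon receptors, the transcription factors that act below them, and genes that interferon is known to induce. They were taken by name from a count table of 32285 features, and all 35 were in it. Of these, 32 reached 2 CPM, the UMIs (unique molecular identifiers, 1 per captured RNA molecule) of a gene as counts per 1e6 UMIs of the class, in at least 1 class of hormone cells of 1 library. The 3 that stayed under that limit were Ifit2 (highest level 0.621 CPM), Gbp2 (1.11 CPM) and Isg15 (1.98 CPM). Just inside it were Gbp3 at 2.06 CPM and Rtp4 at 2.21 CPM.

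The data were single-cell RNA-seq of pancreatic islets from female C57BL/6 mice 12 weeks old, with 1 library from Spopfl/fl controls and 1 from mice with Spop deleted in beta cells (SpopβKO). Spop encodes the substrate adaptor of a cullin-3 ubiquitin ligase. In both groups the islets were released with collagenase, picked by hand, kept 3 days in RPMI medium with 10 mM glucose, dispersed with trypsin and depleted of dead cells and debris before capture. The Cre driver, the exons removed and the number of mice behind each library are not given in the sources used here. With 1 library a group no difference below has a replicate check, and no test of genotype was possible. All intervals, apart from those of a median over members, are exact 95% intervals that cover counting error only.

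The control library held 82541585 UMIs, and 6850 of its 7768 cell barcodes were kept. The other library, labelled knockout, held 89977773 UMIs, and 8842 of its 10033 barcodes were kept. The libraries shared 21 barcodes. Cells were sorted by the islet hormone that led their RNA: 3873 control cells and 7010 cells of the library labelled knockout were led by insulin (56.5% and 79.3% of the kept cells), 1742 and 1024 by glucagon, and 115 and 106 by pancreatic polypeptide. Only 7 and 8 cells were led by somatostatin, too few to describe. A further 301 and 365 cells held 2 hormones and 757 and 229 had no leading hormone, and both sets were kept apart. Insulin lay near the limit of 1% of UMIs, at 1 to 1.5%, in 9.06% and 2.75% of the insulin-led cells. Beta-cell markers other than insulin were present in the insulin-led class: 8 of 9 had a UMI in the control library and 9 of 9 in the other, with a summed level of 14124 and 22825 CPM, most of it from Iapp. All 7 glucagon-cell markers in the table had UMIs in glucagon-led cells of both libraries. The targeted gene was not lower in the library labelled knockout: Spop stood at 63.9 CPM in control insulin-led cells and 78.8 CPM in those of the other library (log2 ratio 0.33, 0.27 to 0.40). Counts from the 3′ end of a transcript may fall outside the deleted exons, so this value checks neither label, and every direction below is that of the library labelled knockout.

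Interferons are secreted proteins that cells release on sensing virus or other danger. Type I interferons bind a receptor made of IFNAR1 and IFNAR2, and interferon gamma binds IFNGR1 and IFNGR2. Both receptors signal through JAK kinases to STAT proteins, which enter the nucleus and bind DNA at the interferon-stimulated response element, together with IRF9, or at the gamma-activated site. The induced genes block viral entry, degrade or sense viral RNA, tag proteins with ISG15, and feed back on the receptor. In islets this programme is known from type 1 diabetes, where it has been seen in beta cells.

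The upstream sequences of the list hold these elements more often than promoters as a whole. Promoters of 30 of the 35 genes were matched in RefSeq (GRCm38.p6), and the 250 bases before each start were searched on both strands. The response element was searched as GAAANNGAAA, which reads TTTCNNTTTC on the other strand. It was found in 11 of 30 members (36.7%) and in 821 of 27025 promoters of all genes (3.04%). The gamma-activated site, searched as TTCNNNGAA, was found in 8 members (26.7%) and in 7.18% of all promoters. Matches of the 2 motifs can overlap. The 160 bases upstream of 5 members are shown, from the far end to the start of the gene on its own strand, with matches to the response element in capitals. They were chosen after their values were seen, from the members with the element in these 160 bases. Nearness to the start did not set the choice. Gbp3, Gbp2, Ifitm2 and Ifit1 hold the element nearer than Bst2, Rsad2 and Ifit3 do, and are not shown. All 5 members shown had log2 ratios above 0 in insulin-led cells, so they do not show whether the element goes with higher levels. Among members that hold it and are not shown, Ifit1 (2 matches) and Ifitm2 (1 match) were level, with ratios of -0.02 and 0.05.
Bst2: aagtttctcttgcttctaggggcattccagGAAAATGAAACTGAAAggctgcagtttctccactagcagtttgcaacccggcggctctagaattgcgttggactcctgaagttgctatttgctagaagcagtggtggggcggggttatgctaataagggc
Gbp7: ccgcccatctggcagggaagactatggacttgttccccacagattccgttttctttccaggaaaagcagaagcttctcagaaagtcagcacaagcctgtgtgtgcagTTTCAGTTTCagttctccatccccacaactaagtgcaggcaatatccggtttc
Rsad2: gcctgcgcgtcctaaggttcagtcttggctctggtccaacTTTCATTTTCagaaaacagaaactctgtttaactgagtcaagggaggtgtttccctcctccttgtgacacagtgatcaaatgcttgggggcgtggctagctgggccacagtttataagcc
Ifit3: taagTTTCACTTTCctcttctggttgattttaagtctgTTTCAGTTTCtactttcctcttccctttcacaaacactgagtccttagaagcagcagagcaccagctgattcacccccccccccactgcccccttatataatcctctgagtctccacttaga
Isg15: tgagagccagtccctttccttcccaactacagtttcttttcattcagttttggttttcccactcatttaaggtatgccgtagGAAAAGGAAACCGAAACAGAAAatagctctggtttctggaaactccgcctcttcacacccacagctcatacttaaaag
The Bst2 stretch is chr8:71537473-71537632 on the minus strand and holds 2 overlapping matches. The Gbp7 stretch is chr3:142530176-142530335 on the plus strand, the Rsad2 stretch chr12:26456453-26456612 on the minus strand, and each holds 1 match. The Ifit3 stretch, chr19:34583369-34583528 on the plus strand, holds 2 separate matches. The Isg15 stretch, chr4:156200819-156200978 on the minus strand, holds 3 overlapping ones. The element was in 5 of the 13 matched members that stood at least 1.5-fold higher in insulin-led cells of the library labelled knockout, and in 4 of the 14 that did not. A match is a string of letters and not a measured site.

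In insulin-led cells most of the list stood higher in the library labelled knockout, and none of it stood 1.5-fold lower. Of the 32 members, 17 were at least 1.5-fold higher, against 11.5% of all 11773 genes at this level, and 0 were at least 1.5-fold lower, against 4.58% of all genes. The members' median log2 ratio was 0.63, and that of all genes was -0.02. A 95% interval of the members' median, taken from the ranks of the members, ran from 0.38 to 0.97. It treats members as independent and does not measure the spread between libraries, so it is no test of genotype. The ratio was above 0 for 28 members, against 48.0% of all genes. The interval lay wholly above 0 for 26 members and wholly below 0 for Ifngr1 alone. The share of all genes with such intervals is not given, so these 2 counts have no background. The 5 members Ifit3, Ifitm3, Oasl2, Gbp3 and Rtp4 reached 2 CPM in insulin-led cells of only 1 library, the one labelled knockout, and so had to differ. Filtered instead on the mean of the libraries, 13 of 28 members were past 1.5-fold higher, against 10.6% of 11520 genes, 0 were lower, against 4.3%, and the members' median was 0.52. Summed over the 32 members, the level was 546 CPM in the control library and 731 CPM in the other.

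**Figure D1:**
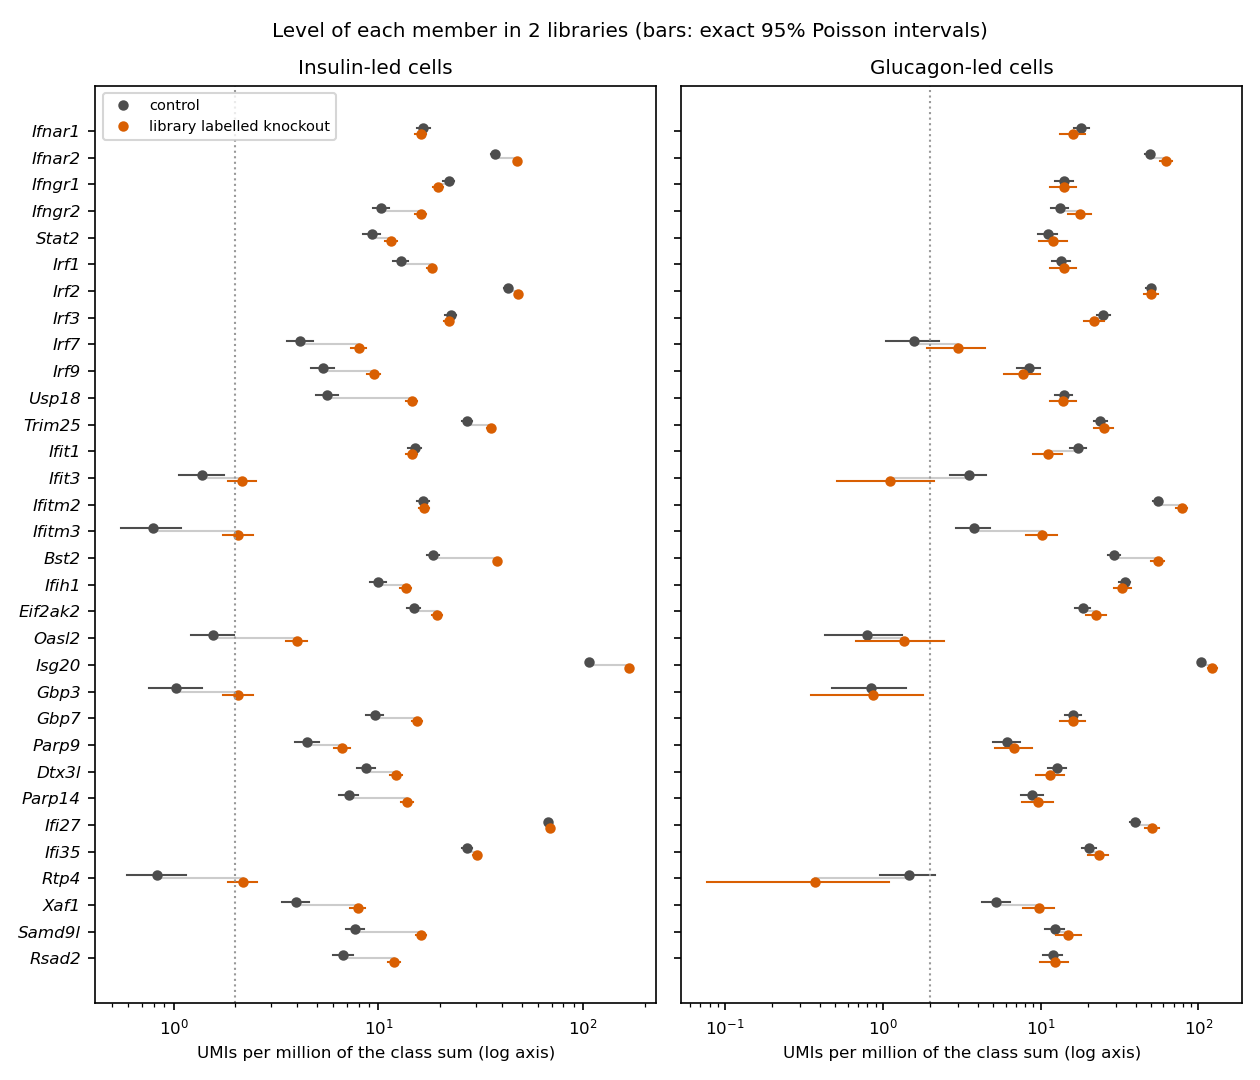
Level of each of the 32 members, in CPM on a log axis, in insulin-led and glucagon-led cells of the control library and the library labelled knockout, with exact 95% Poisson intervals. In insulin-led cells the levels ran from under 1 CPM (Ifitm3, Rtp4) to 107 and 167 CPM for Isg20.

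Of the 4 receptor chains 1 was past 1.5-fold. Ifngr2, the signalling chain of the gamma receptor, stood at 10.3 CPM in control insulin-led cells and at 16.1 CPM in those of the library labelled knockout (log2 ratio 0.67; 0.52 to 0.83). Its partner Ifngr1, which binds the ligand, stood at 22.0 and 19.6 CPM (-0.14; -0.26 to -0.02). Ifnar2, the type I chain that carries STAT2, stood at 37.2 and 47.3 CPM (0.38; 0.29 to 0.46), and Ifnar1 at 16.6 and 16.0 CPM (-0.02; -0.15 to 0.12). Ifnar2, Ifnar1 and Ifngr2 lie close together on chromosome 16 (mm10), at 91372783-91405589, 91485238-91507441 and 91547072-91565623, all on the plus strand. The interval of the middle gene spanned 0, and those of its neighbours lay above it.

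Of the 6 transcription factors 2 were past 1.5-fold. Irf7, the factor that amplifies type I interferon production, stood at 4.16 CPM (190 UMIs) and 8.0 CPM (562 UMIs), with a ratio of 0.97 (0.73 to 1.22). Irf9, the DNA-binding part of the STAT complex, stood at 5.35 and 9.46 CPM (0.85; 0.64 to 1.07). The other 4 factors were not past it: Irf1 (0.53), Stat2 (0.35), Irf2 (0.19) and Irf3 (0.00). Irf3, the factor activated by phosphorylation when nucleic acids are sensed, stood at 22.6 and 22.1 CPM.

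Usp18 had the largest ratio among members above 5 CPM in either library. It encodes the protease that strips ISG15 from proteins and shuts off the type I receptor. Its level was 5.61 CPM (256 UMIs, in 230 cells) in control insulin-led cells and 14.5 CPM (1020 UMIs, in 867 cells) in the other library, a 2.64-fold difference (log2 1.40; 1.20 to 1.60). No cell held more than 5 of these UMIs. Isg15, the tag itself, was scarce, at 0.745 CPM (34 UMIs) and 1.98 CPM (139 UMIs), a log2 ratio of 1.44 (0.89 to 2.02). Trim25, a ubiquitin ligase that activates the RNA sensor RIG-I, stood at 27.0 and 35.3 CPM (0.42; 0.32 to 0.52). Usp18 lies on chromosome 6 at 121245906-121270917, where an antisense noncoding gene overlaps it by 15715 bases. Ifnar2, Irf3 and Rtp4 also overlap other gene models, by 13869, 1065 and up to 39791 bases. Whether the counting used strand is not given in the sources used here.

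The membrane effectors were split. Bst2, or tetherin, which holds budding virus at the cell surface, stood at 18.6 CPM (847 UMIs, in 601 cells) and 38.0 CPM (2674 UMIs, in 1607 cells), a 2.09-fold difference (1.07; 0.95 to 1.18). Ifitm3, which blocks fusion of virus in endosomes, stood at 0.789 CPM (36 UMIs) and 2.06 CPM (145 UMIs), with a log2 ratio of 1.42 (0.88 to 1.99). In the control library 72.2% of the Ifitm3 UMIs came from 5 cells, and without the 2 cells of most member UMIs in each library its ratio was 2.12. Its neighbour and near-copy Ifitm2 stood at 16.5 and 16.7 CPM (0.05; -0.09 to 0.18), with another gene model on its own strand overlapping it by 1101 bases. RNA carried from macrophage, endothelial and mesenchymal cells was estimated from their markers, as described further on. It came to 139% and 70.3% of the Ifitm3 level in the control library and the other. No difference of insulin-led cells is therefore read from Ifitm3, which stays in the counts of members past 1.5-fold.

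Genes of RNA sensing and decay were higher to unequal degrees. Isg20, an exonuclease that degrades viral RNA, was the list's most abundant gene in insulin-led cells, at 107 CPM (4877 UMIs) and 167 CPM (11756 UMIs). That is 1.60-fold (0.68; 0.63 to 0.72). Oasl2, of the oligoadenylate synthetase family, stood at 1.56 and 3.98 CPM (1.39; 1.01 to 1.78). Ifih1, the sensor MDA5, and Eif2ak2, the kinase PKR that stops translation, stayed within 1.5-fold, with ratios of 0.48 (0.32 to 0.64) and 0.41 (0.28 to 0.55).

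The IFIT proteins bind viral RNA that lacks the host cap, and the GBP proteins are GTPases that attack membranes of intracellular microbes. Ifit1 stood at 15.01 and 14.5 CPM (-0.02; -0.16 to 0.12) and Ifit3 at 1.38 and 2.16 CPM (0.68; 0.25 to 1.13). Ifit2 had 7 and 15 UMIs. Gbp7 stood at 9.60 and 15.4 CPM (0.71; 0.55 to 0.88) and Gbp3 at 1.03 and 2.06 CPM (1.03; 0.55 to 1.54). Gbp2 had 20 and 78 UMIs. Both families lie in clusters of near-copies, on chromosome 19 for the IFIT genes and chromosome 3 for these GBP genes, so the split of reads among their members is uncertain.

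Parp9 and Dtx3l form an ADP-ribosylation and ubiquitin ligase pair, and Parp14 lies beside them on chromosome 16. Parp14 stood at 7.14 and 13.8 CPM (0.98; 0.79 to 1.16), Parp9 at 4.49 and 6.64 CPM (0.59; 0.36 to 0.84) and Dtx3l at 8.70 and 12.1 CPM (0.51; 0.34 to 0.69). Parp9 was just past 1.5-fold, at 1.51, and Dtx3l just short of it. The gene models of Parp9 and Dtx3l overlap by 682 bases on opposite strands. An antisense gene model, Gm15564, overlaps Parp9 by a further 5854 bases.

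Of the remaining interferon-stimulated genes, 4 of 6 were past 1.5-fold. Samd9l, an antiviral protein that restrains translation, stood at 7.69 CPM (351 UMIs) and 16.1 CPM (1134 UMIs), a 2.14-fold difference (1.10; 0.93 to 1.28). Xaf1, a partner of the apoptosis inhibitor XIAP, stood at 3.94 and 7.91 CPM (1.03; 0.79 to 1.28). Rsad2, or viperin, which makes a chain-terminating nucleotide, stood at 6.70 and 12.0 CPM (0.86; 0.67 to 1.06), and Rtp4 at 0.832 and 2.18 CPM (1.42; 0.90 to 1.97). Ifi27 and Ifi35 were abundant and nearly level, at 67.4 and 68.8 CPM (0.06; -0.01 to 0.13) and at 27.1 and 30.4 CPM (0.19; 0.09 to 0.29).

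**Figure D2:**
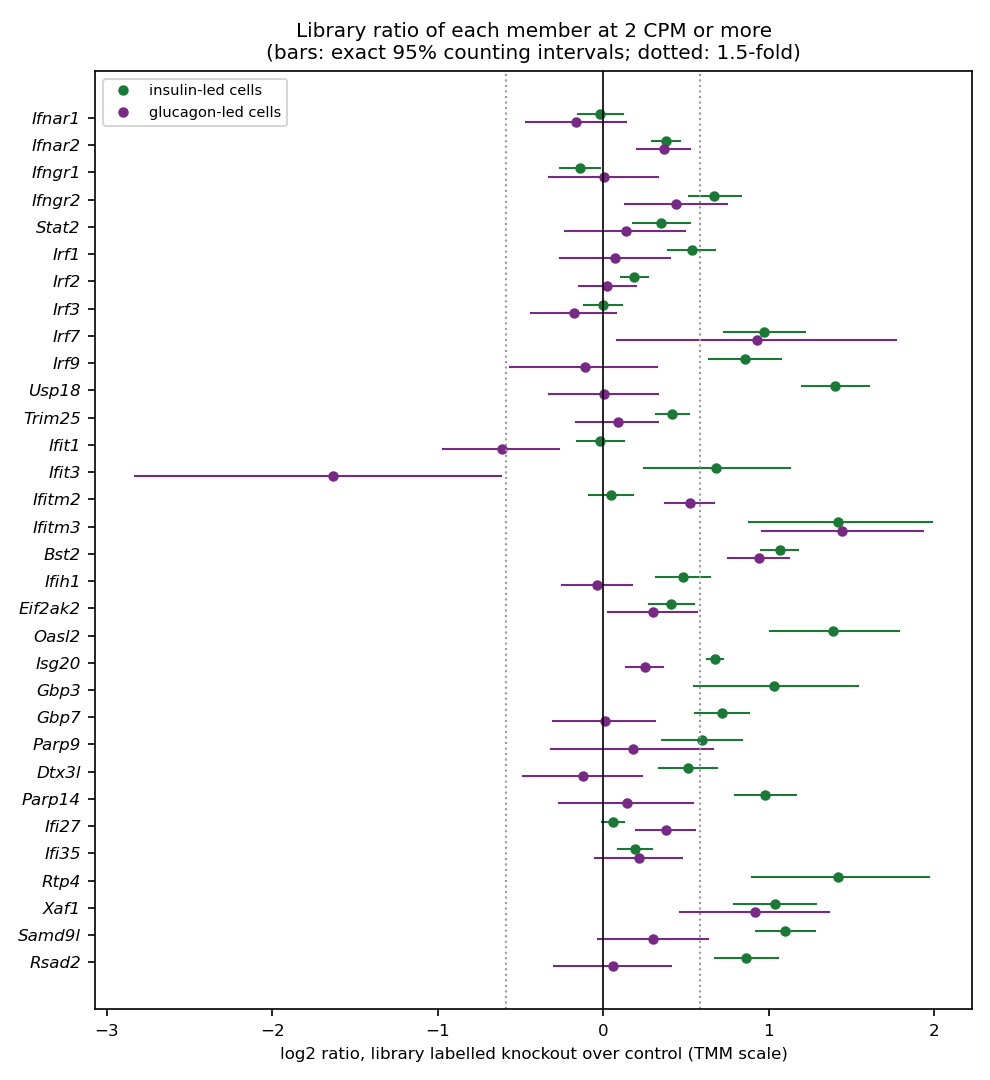
Log2 ratio of the library labelled knockout over control for each member at 2 CPM or more, in insulin-led and glucagon-led cells, with exact 95% counting intervals and dotted lines at 1.5-fold. In insulin-led cells 17 of 32 members lie beyond the upper line, and in glucagon-led cells 4 of 29 do.

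Glucagon-led cells of the same libraries had fewer members at least 1.5-fold higher, and a smaller share of all genes. Of 29 members at 2 CPM, 4 were at least 1.5-fold higher in the library labelled knockout, against 2.77% of 12002 genes, and 2 were at least 1.5-fold lower, against 3.3% of genes. Irf7 (28 and 24 UMIs) reached 2 CPM only in the library labelled knockout and Ifit3 only in control, so both had to differ. Both passed a filter on the mean of the libraries. With that filter the counts were again 4 and 2 of 29, against 2.28% and 2.59% of genes. The members' median log2 ratio was 0.14, and that of all genes was -0.01. An interval from the members' ranks ran from 0.01 to 0.30, and it too holds no spread between libraries. The ratio was above 0 for 22 members, against 48.1% of all genes. The interval lay wholly above 0 for 10 members and wholly below 0 for 2, again without a share over all genes. The 4 were Bst2, at 29.1 CPM (516 UMIs) and 55.2 CPM (445 UMIs; 0.94, 0.75 to 1.12), Ifitm3, at 3.78 and 10.2 CPM (1.44; 0.96 to 1.93), Xaf1, at 5.25 and 9.80 CPM (0.92; 0.47 to 1.37), and Irf7, at 1.58 and 2.98 CPM (0.93; 0.08 to 1.77). All 4 were also past 1.5-fold in insulin-led cells, but no difference of those cells is read from Ifitm3, as given above. Ifitm2, level in insulin-led cells, stood at 55.3 and 78.6 CPM here (0.52; 0.38 to 0.67), and Isg20 at 104 and 122 CPM (0.25; 0.14 to 0.36). Of the receptor chains Ifnar2 stood at 49.4 and 62.8 CPM (0.36; 0.20 to 0.52) and Ifngr2 at 13.2 and 17.7 CPM (0.44; 0.13 to 0.75), on the same side as in insulin-led cells but within 1.5-fold. Macrophage markers in these cells came to 13.7 and 33.4 CPM (11 of 12 detected in each library). Scaled by the markers of macrophage, endothelial and mesenchymal cells, carried RNA came to 2.09% and 2.67% of the Bst2 level and to 32.2% and 11.7% of the Ifitm3 level.

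Several members past 1.5-fold in insulin-led cells were within 1.5-fold in glucagon-led cells. Their ratios there ran from -0.11 for Irf9 (-0.56 to 0.32) to 0.44 for Ifngr2. Usp18 stood at 14.0 CPM (248 UMIs) and 13.9 CPM (112 UMIs; 0.01, -0.33 to 0.33). Its level in control glucagon-led cells was thus near its level of 14.5 CPM in insulin-led cells of the library labelled knockout. Gbp7 stood at 16.1 and 16.0 CPM (0.01), Rsad2 at 11.9 and 12.3 CPM (0.06; -0.30 to 0.41), Parp14 at 8.87 and 9.68 CPM (0.14) and Samd9l at 12.3 and 15.02 CPM (0.30). Whether the ratio differs between the cell classes was not tested, for want of replicate libraries.

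The lower levels of Ifit1 and Ifit3 in glucagon-led cells rested largely on 2 cells of the control library. Ifit3 had 62 UMIs in the control library and 9 in the other (-1.63; -2.83 to -0.62), and Ifit1 had 306 and 90 (-0.61; -0.97 to -0.27). One control cell, with 9786 UMIs of which 26.9% were glucagon, held 49 of the 62 Ifit3 UMIs (79.0%), 35 of the Ifit1 UMIs (11.4%) and no macrophage or endothelial marker UMI. Another, with 14390 UMIs, held 138 UMIs from 24 members, among them 56 of the Ifit1 UMIs (18.3%) and 31 of the Rsad2 UMIs (14.7%), where the median cell of the class held 4 member UMIs. Without the 2 cells of most member UMIs in each library, 0 members were 1.5-fold lower, 4 of 28 were higher, and the ratios of Ifit1 and Ifit3 were -0.11 (-0.48 to 0.25) and 0.75 (-0.68 to 2.12). Ifit2, under the limit, had 11 and 0 UMIs, and 10 and 0 without those cells. The same removal in insulin-led cells left 17 higher and 0 lower.

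Within each library the cell classes differed in which members they carried. Ifitm2, Ifitm3 and Ifih1 were at least 1.5-fold higher in glucagon-led than in insulin-led cells of both libraries, with log2 ratios of 1.69 and 2.16, 2.21 and 2.23, and 1.73 and 1.21. The Ifitm3 ratios rest on insulin-led levels for which the estimate of carried RNA was 139% and 70.3%, so their size is not read. Irf7 and Oasl2 were at least 1.5-fold lower in glucagon-led cells of both, at -1.45 and -1.50 and at -1.03 and -1.62. The share of all genes past 1.5-fold on 1 side in both libraries is not given. Usp18 was at 1.27 in the control library and at -0.13 in the other. In the control library 10 of 29 members were higher in glucagon-led cells, against 16.1% of all genes, and 3 lower, against 13.3%. In the library labelled knockout 3 of 32 were higher, against 12.3%, and 5 lower, against 14.2%, shares near the background.

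Members were also counted cell by cell. Each cell was thinned to 5000 UMIs, because the libraries differed in depth (medians of 8855 and 7758.5 UMIs in insulin-led cells), and shallower cells were left out, 1117 of the control insulin-led cells and 2546 of the others. At this depth 37.8% of control insulin-led cells (1042 of 2756; 36.0 to 39.6) and 57.5% of those of the library labelled knockout (2569 of 4464; 56.1 to 59.0) held UMIs of 3 or more members. Without thinning the shares were 57.8% and 62.9%. Over the 22 induced effector genes alone, without receptors and transcription factors, the thinned shares were 16.3% (450 cells; 15 to 17.8) and 31.6% (1410 cells; 30.2 to 33.0). The mean number of members detected in a cell was 2.23 and 3.00. No like count for other genes of similar level is given, so these shares have no background. Of all genes in this class, 11.5% were at least 1.5-fold higher and 4.58% lower.

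**Figure D3:**
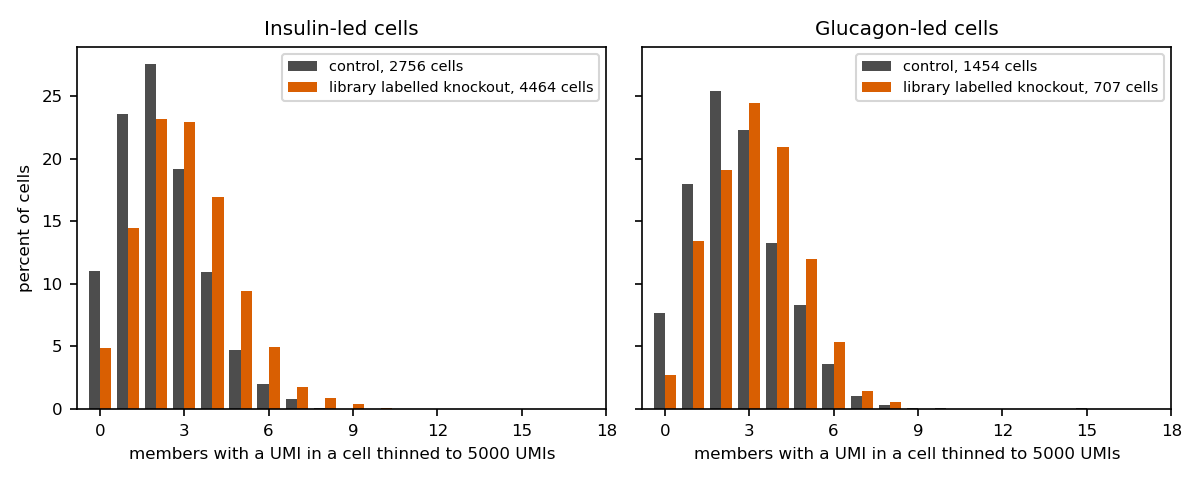
Percent of cells by the number of members with a UMI, after thinning each cell to 5000 UMIs, for insulin-led and glucagon-led cells of both libraries. In insulin-led cells the mean was 3.00 members in the library labelled knockout and 2.23 in control. The 2 distributions overlap, and 2 members was the most common count in both.

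Detection differed by member, among abundant and scarce ones. Isg20 was detected in 34.9% of thinned control insulin-led cells and 49.3% of those of the library labelled knockout, and Bst2 in 7.22% and 16.7%. Usp18 was detected in 2.03% and 6.70%, Samd9l in 2.98% and 6.90%, and Oasl2 in 0.544% and 1.84%. Members level between the libraries were detected in like shares, Ifi27 in 23.9% and 26.0%, Irf3 in 10.2% and 10.4%, Ifitm2 in 5.91% and 6.99% and Ifit1 in 5.52% and 5.87%. No islet class is known to lack these genes, so no background share can be given for them. As a measure of RNA from other cells, insulin made up 0.436% and 1.05% of the UMIs of glucagon-led cells, against 14.0% and 17.4% in insulin-led cells. Among glucagon-led cells 49.0% (713 of 1454) and 64.8% (458 of 707) held 3 or more members.

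A small tail of insulin-led cells held 8 or more members, 5 control cells (0.181%) and 67 cells of the library labelled knockout (1.501%). These cells were picked by their members, so the members' levels in them are no result. They carried 1.07% and 4.56% of all member UMIs of the thinned cells. In the library labelled knockout their median depth before thinning was 12538 UMIs against 12421 in the other cells, and their macrophage markers summed to 56.7 CPM against 65.7. Their endothelial markers summed to 17.9 CPM against 10.8 and their beta-cell markers to 15454 CPM against 21557. Pathway genes that were not used to pick them summed to 1764 CPM against 1432 CPM in that library. In control they summed to 3760 CPM in the 5 cells (94 UMIs) against 1151 CPM in the others. These sums were not compared with those of genes outside the pathway. Among glucagon-led cells 8 (0.550%) and 4 (0.566%) were in this tail.

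Markers of other cells moved with the library as well. The 12 macrophage markers together came to 14.5 CPM in insulin-led cells of the control library, with 10 of 12 detected and Ptprc and Adgre1 at 0, and to 68.5 CPM in the library labelled knockout, with 12 of 12 detected. Most of the difference was C1qa, at 5.54 and 47.4 CPM, and without each library's highest marker the sums were 8.96 and 21.1 CPM. The endothelial list came to 12.2 and 11.2 CPM in insulin-led cells, mesenchymal markers to 5.06 and 9.38 CPM, acinar markers to 5.85 and 33.5 CPM and lymphocyte markers to 19.5 and 5.88 CPM.

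The members' levels in the marked cells give the size that such RNA could have. Scaled by the macrophage, endothelial and mesenchymal markers, RNA carried from those cells came to a median of 0.492% of a member's level in control insulin-led cells and 0.739% in the other library, and to under 5% for 30 and 28 of the 32 members. It was largest for Ifitm3, as given above. For Bst2 it came to 0.640 of 18.6 CPM and 2.71 of 38.0 CPM. Without cells that held any macrophage, endothelial or lymphocyte marker UMI, 16 of 31 members were past 1.5-fold higher, against 10.1% of all genes, and 0 lower, against 3.70%, with a median of 0.59 and Bst2 at 1.35. Acinar and lymphocyte RNA are not in the estimate, and the part of RNA from other cells in the result was not tested.

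The libraries also differed in depth, mitochondrial share and insulin share per cell, so the ratios were taken again within ranges of each. Insulin-led cells under 3000 UMIs fell in none of the depth ranges. Members past 1.5-fold higher numbered 14 of 31, 15 of 29 and 10 of 28 in cells with mitochondrial UMIs of at most 2%, 2 to 5% and 5 to 15%, where 11.2%, 12.2% and 12.4% of all genes were. They numbered 11 of 32, 16 of 30 and 16 of 29 in cells of 3000 to 8000, 8000 to 15000 and over 15000 UMIs, where 16.9%, 16.6% and 11.4% of all genes were. By insulin share they numbered 10 of 30 at 1 to 5%, 15 of 29 at 5 to 15% and 16 of 31 at 15% or more, with medians of 0.36, 0.59 and 0.69. The share of all genes past 1.5-fold higher was 8.65%, 12.9% and 19.5% in these 3 ranges. The part of these cell properties in the result was not tested further.

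**Figure D4:**
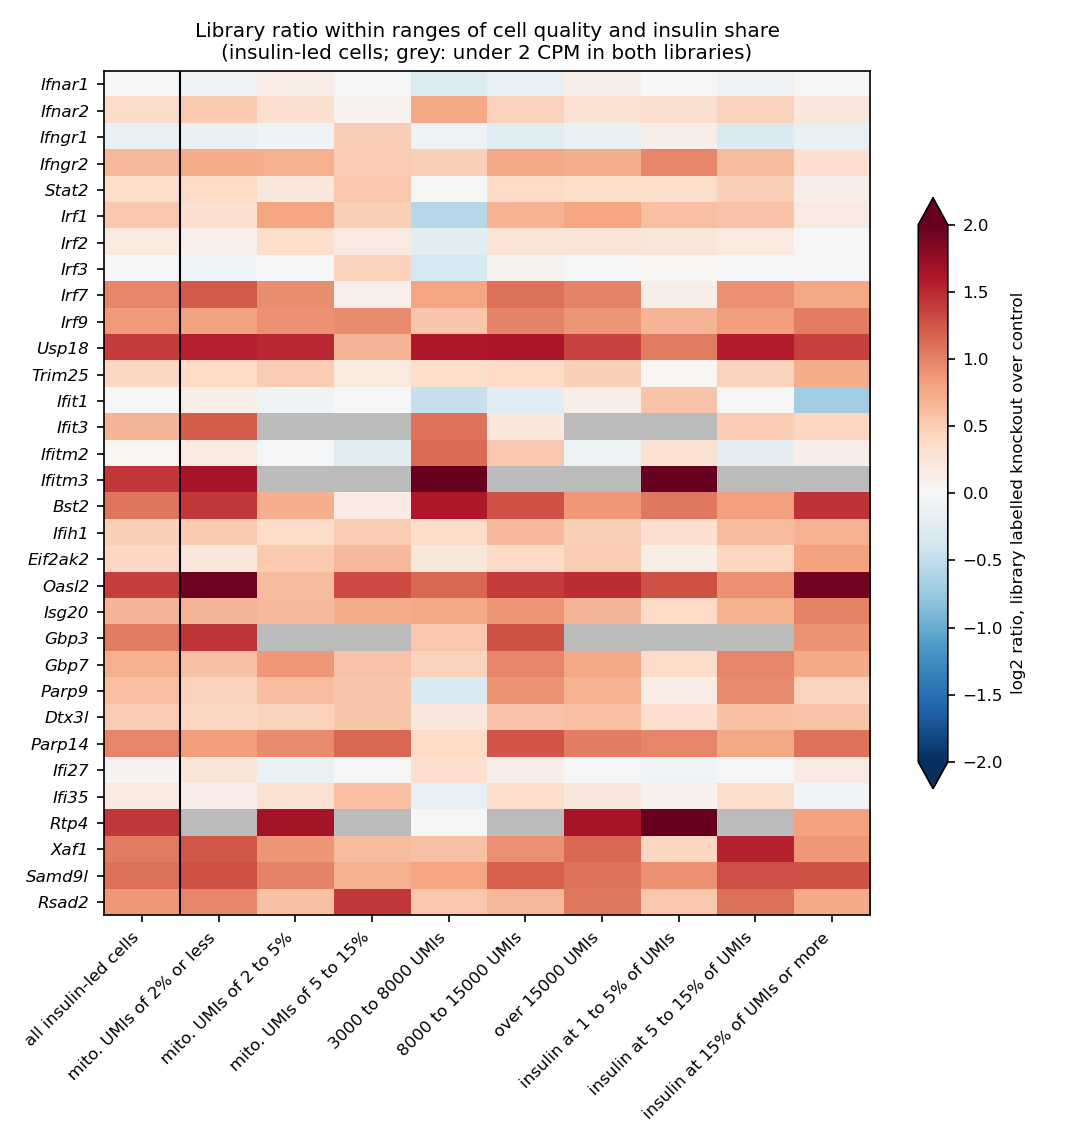
Log2 ratio of the library labelled knockout over control for each member in insulin-led cells, in all cells and within ranges of mitochondrial share, UMIs per cell and insulin share, as colour; grey marks members under 2 CPM in both libraries. Usp18 and Samd9l are above 0.58, which is 1.5-fold, in each range, and Bst2 is at 0.17 in cells of 5 to 15% mitochondrial UMIs.

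Members differed in how they held over these ranges and over the other settings tried. Usp18 stayed between 0.67 and 1.73 and Samd9l between 0.70 and 1.29, past 1.5-fold in 25 of 25 settings each. Isg20 (0.40 to 1.00) and Parp14 (0.40 to 1.25) were past it in 24 of 25. Bst2 ran from 0.17 to 1.60, lowest in the cells of 5 to 15% mitochondrial UMIs. Irf7 was at 0.10 in those same cells and at 0.12 in cells with insulin at 1 to 5% of UMIs.

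Other genes of the pathway were mostly on the same side of 0. Of 118 further genes of interferon signalling, 112 were in the table and 48 reached 2 CPM in insulin-led cells. Of these 14 were at least 1.5-fold higher in the library labelled knockout, 0 lower and 40 above 0, with a median of 0.28. Over all genes 11.5% were higher, 4.58% lower and 48.0% above 0, with a median of -0.02. Of the 14, 6 reached 2 CPM in only 1 library, the one labelled knockout, and so had to differ. Filtered on the mean of the libraries, 13 of 47 were higher and 0 lower, with a median of 0.27, beside 10.6% of all genes higher. By role, 1 of 11 signal transducers, 3 of 8 sensors and adaptors and 10 of 29 other induced genes were past 1.5-fold. Gbp8, another of the GBP genes, stood farthest from 1, at 1.40 CPM (64 UMIs) and 17.997 CPM (1265 UMIs), a 13.1-fold difference (log2 3.71; 3.35 to 4.098). It was 1 of the 6 that reached 2 CPM in only 1 library. Cmpk2, a mitochondrial nucleotide kinase, stood at 7.91 and 14.3 CPM (0.88), Ddx58, the RNA sensor RIG-I, at 6.16 and 10.8 CPM (0.84), and Lgals3bp, a secreted glycoprotein, at 128 and 194 CPM (0.63).

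In glucagon-led cells 4 of 49 pathway genes were at least 1.5-fold higher, against 2.77% of all genes, and 1 was lower, against 3.3%, with a median of -0.02. The lower gene was Ifit3b, named after its values were seen, and 28 of its 36 control UMIs (77.8%) lay in the cell that held most of the Ifit3 UMIs. Filtered on the mean of the libraries 4 of 48 were higher and 0 lower. Of the 4, 2 reached 2 CPM in only 1 library and so had to differ. Gbp8 was 1 of these, at 1.19 and 3.97 CPM (1.76). The transducer past 1.5-fold in insulin-led cells was the feedback inhibitor Socs3, at 1.75 and 3.90 CPM (1.18). There it reached 2 CPM only in the library labelled knockout, and it is named after its values were seen. It was also past 1.5-fold in glucagon-led cells (0.76).

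The interferons themselves were hardly detected. Among 19 interferon genes 0 reached 2 CPM, and over all kept cells 12 UMIs came from 5 of them in the control library and 8 UMIs from 3 in the library labelled knockout. Ifnb1 had 1 UMI in the control library and 0 in the other. A count of 0 allows up to 3 UMIs, or 0.0371 and 0.0339 CPM over the kept cells.

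Outside the hormone cells the summed level was higher still, in classes of few cells that are given for scale. Macrophage-marked cells (15 and 55) carried Bst2 at 826 and 876 CPM, Ifnar2 at 283 and 214 CPM and Irf7 at 47.2 and 27.4 CPM, and the members summed to 2123 and 1966 CPM. Endothelial-marked cells (33 and 14) carried Ifitm2 at 695 and 733 CPM and Ifitm3 at 527 and 599 CPM, and mesenchymal-marked cells (4 and 29) Ifitm3 at 754 and 679 CPM. Isg20 ran the other way, at 14.2 and 35.3 CPM in macrophage-marked cells against 107 and 167 CPM in insulin-led cells. In cells led by pancreatic polypeptide Isg20 stood at 163 and 137 CPM, Bst2 at 42.0 and 48.0 CPM, Usp18 at 14.4 and 17.8 CPM and Samd9l at 23.6 and 24.0 CPM. Their members summed to 752 and 801 CPM.

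**Figure D5:**
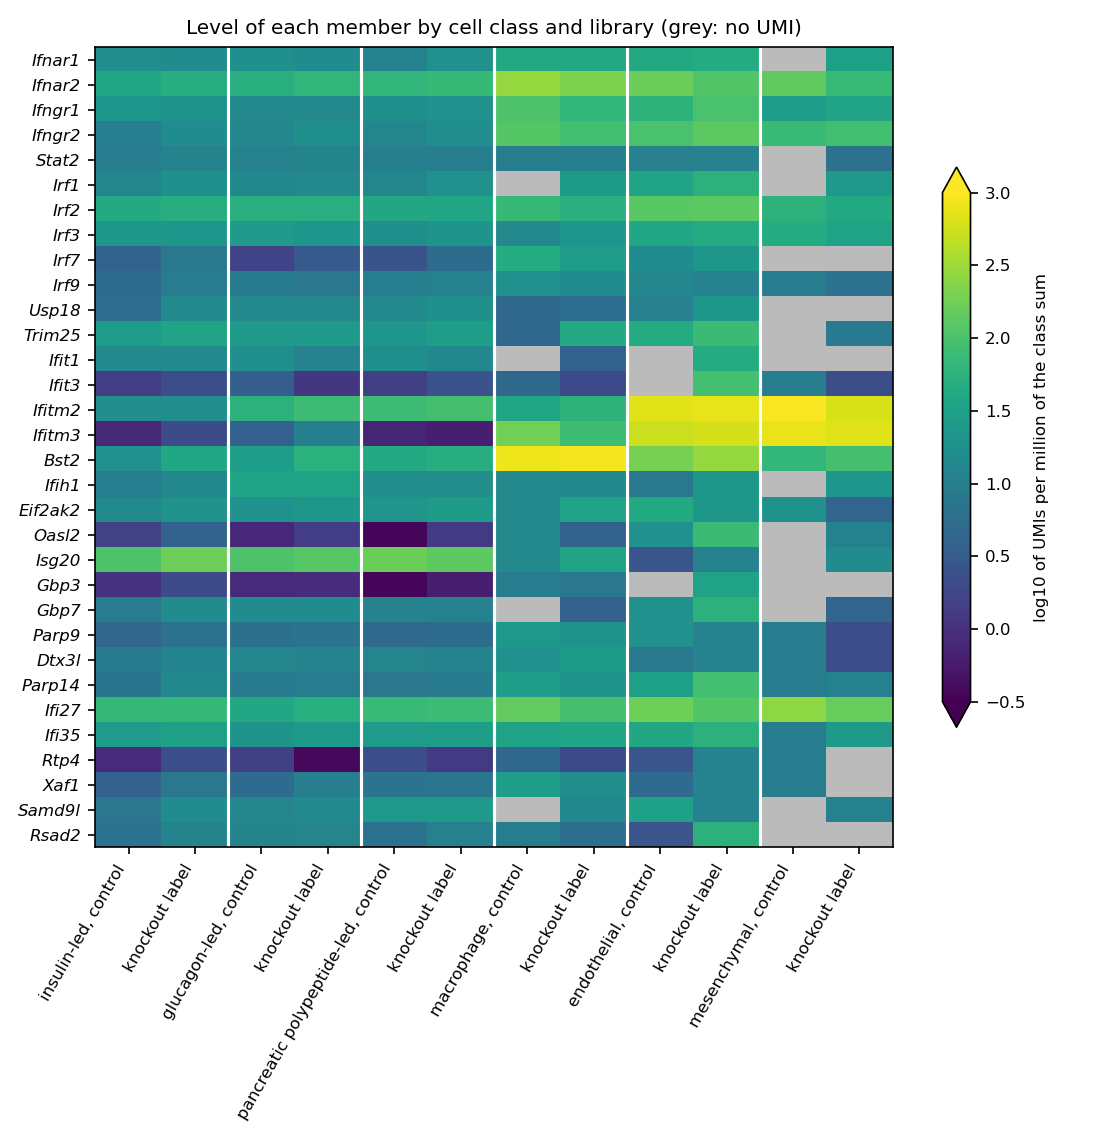
Level of each member, as log10 of CPM of the class sum, by cell class and library; grey marks no UMI. Bst2 is highest in macrophage-marked cells, Ifitm2 and Ifitm3 in endothelial and mesenchymal cells, and Isg20 in the hormone cells.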

How the data were processed

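Single-cell RNA-seq counts of islets were analysed in 2 libraries, 1 per genotype. The deposited matrices hold UMI counts per gene and barcode; per the file headers they were written by Cell Ranger 6.0.0. The submitters' processing notes name mm10, R 4.1.1 and Seurat 4.1.0.

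From these, barcodes with fewer than 500 genes or over 15% mitochondrial UMIs were dropped. Cells with at least 10 marker UMIs making 0.5% of UMIs were set apart as macrophage, endothelial, mesenchymal or lymphocyte cells, and acinar cells at 2%. A hormone led a cell at 1% of UMIs or more and 2 times the next; cells with 2 hormones were set apart, and no doublet caller was run. UMIs were summed per class, levels given as CPM, and ratios scaled by TMM (edgeR 4.0.16 was the reference for the method, checked on simulated data). Past 1.5-fold was called, with no p-value. Intervals are exact Poisson, conditional binomial or Clopper-Pearson, at 95%, and UMIs within a cell are not independent. Those of a median over members come from the members' ranks and treat members as independent. Positions come from the mm10 annotation and promoters from RefSeq. Thinning used a fixed random seed.

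All members are named. Of the pathway lists, genes at 10 CPM and past 1.5-fold, ligands and gate markers are named; 1 further gene of the rule is not reported here. The members and lists were chosen with earlier results of these data known. Python 3.11.15, numpy 2.4.6, scipy 1.17.1 and pandas 2.3.3 were used.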

Additional observations from a re-analysis of the deposited data

Results flagged for a closer look

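Ifit3 and Rtp4 had ratios of opposite sign in the 2 hormone classes: in glucagon-led cells their log2 ratios were -1.63 and -1.96, and in insulin-led cells 0.68 and 1.42. The difference between classes was not tested. Both were scarce, with 62 and 9 Ifit3 UMIs and 26 and 3 Rtp4 UMIs in glucagon-led cells of the control library and the library labelled knockout. One control cell held 49 of the 62 Ifit3 UMIs and 4 of the 26 Rtp4 UMIs. Without the 2 cells of most member UMIs in each library, Ifit3 was at 0.75 (-0.68 to 2.12) and Rtp4 at -1.71 (-4.10 to 0.02).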

How the results depend on the processing

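No paired analysis was possible because there is 1 library per group. Of the alternatives to the counts, medians and shares, 104 kept their call or moved by less than the counting error and 42 moved. Of those for single members, 603 kept, 153 moved and 9 reversed. The settings by hormone limit of 0.3%, insulin range, shared barcodes, cells of most member UMIs, random draw and mean level were chosen after seeing the data.

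The 17 members higher in insulin-led cells became 8 at a fold of 2, 8 at 10 CPM, 10 at 5 to 15% mitochondrial UMIs, 11 at 3000 to 8000 UMIs and 10 at 1 to 5% insulin, where the median was 0.36. At 15% insulin or more 1 was lower. In glucagon-led cells a fold of 2 left 1 higher and 1 lower, and without the 2 cells of most member UMIs 0 were lower. Of pathway genes in glucagon-led cells 0 were lower when filtered on the mean.

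The shares of cells with 3 or more members, control first, were 15.8% and 29.6% at 3000 UMIs, 66.9% and 82.7% at 8000, and 57.8% and 62.9% without thinning. They were 65.3% and 80.7% for 2 or more members, 7.69% and 17.7% for 5 or more, and 14.0% and 26.7% without the 4 most detected members. With a leading hormone at 5% they were 33.2% and 55.6%. In cells of at least 8000 UMIs the control share was 40.3%. In the library labelled knockout the share was 55.5% with a hormone 4 times the next and 56.0% without cells holding a macrophage, endothelial or lymphocyte marker UMI. For effectors the shares were 5.79% and 13.6% at 3000 UMIs, 36.6% and 56.8% at 8000, 40.0% and 48.5% unthinned, 40.4% and 59.97% for 2 or more, 1.56% and 4.61% for 5 or more, and 2.65% and 7.01% without the 4 most detected. The control share of effectors was 13.3% with the hormone at 5% and 18.4% in cells of at least 8000 UMIs.

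Among members whose interval excluded 0, signs reversed for Ifngr1, at 0.50 in cells of 5 to 15% mitochondrial UMIs and 0.12 at 1 to 5% insulin, and for Ifi35 at 15% insulin or more (-0.051). In cells of 3000 to 8000 UMIs they reversed for Stat2 (-0.0079), Irf1 (-0.57), Irf2 (-0.21), Parp9 (-0.30), Ifi35 (-0.17) and Rtp4 (-0.026). The cause was not tested. Members whose interval spanned 0 also changed sign: over 25 settings Irf3 kept it in 14, Ifit1 in 16, Ifitm2 in 19, and Ifnar1 and Ifi27 in 20. Depth limits Isg15, Ifit2, Ifit3, Ifitm3, Gbp2, Gbp3 and Rtp4, which had under 200 UMIs in each insulin-led class.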
